A study of Mus musculus with 5 samples.

Results

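Erythroid progenitor transcripts are followed here in 9 genes of red cell commitment, Gata1, Klf1, Hemgn, Epor, Car1, Car2, Blvrb, Ermap and Rhag. All 9 were found by symbol among the 35976 rows of the gene count table; the globins are left out of the set. They were chosen by their counts and CPM in all 5 libraries, for an uneven pattern, so their levels are given as a description. They entered the fits across all genes, but no p-value is given for them. The libraries came from haematopoietic stem cells (HSCs) of C57BL/6 mouse bone marrow, sorted as Lineage-, Sca-1+, c-kit+, CD34- and CD150+, with 30 cells to a library and paired 150-bp reads by Smart-seq2. There were 3 libraries labelled Ythdf3-/- and 2 labelled WT, each from a different mouse, whereas the series text counts 2 knockout and 3 wild-type samples. The labels give no allele, age or other treatment for either group, and all animals shared the strain. YTHDF3 binds mRNA in the cytoplasm at N6-methyladenosine marks. Its own gene went against the labels, with 2, 339 and 366 counts for those labelled Ythdf3-/- 1, 2 and 3, against 20 and 29 in those labelled WT 1 and WT 2. Every library is therefore named by its label, and any direction between groups refers to labels alone.

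Red cell commitment starts when a progenitor shared with the megakaryocyte lineage turns up GATA1, a zinc finger factor that binds GATA sites in the promoters and enhancers of most erythroid genes. KLF1, a factor of CACCC boxes, acts with it and favours the red cell over the platelet fate. Progenitors then depend on erythropoietin, read by the receptor EPOR, and switch on carbonic anhydrases, haem enzymes and membrane proteins of the red cell, before globin messages come to dominate. HSCs themselves sit upstream of all these steps.

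Depth set a small level for 1 count in every library, but it does not show how many transcripts were lost before sequencing. Whether low counts came from such loss was not tested. Totals ran from 6357862 to 9076806 counts under the Ythdf3-/- label and were 16650134 and 8968162 under the WT label, so 1 count was worth 0.0601 to 0.157 CPM (counts per 1000000 counts of the library). Of 20 genes listed for HSC identity, 17, 17 and 17 reached 10 CPM in the libraries labelled Ythdf3-/-, against 18 and 16 in those labelled WT. The list also holds Cd34, Flt3 and Cd48, so these totals do not measure purity. The cells were sorted as CD34-, and Cd34 had 891, 20 and 1709 counts under the Ythdf3-/- label, against 3455 and 522 under the WT label. Slamf1, which encodes the sort marker CD150, had 328, 354 and 211 counts under the Ythdf3-/- label and 482 in the library labelled WT 1, but 1 in that labelled WT 2. The last is also the library with the highest CPM for 6 of the 9 erythroid genes, and for 22.5% of the 9425 genes with a mean of at least 10 CPM. The 9 were picked for their pattern, so nothing is read from the difference.

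Library by library, the 9 genes gave different pictures. The libraries labelled Ythdf3-/- 1, 2 and 3 had 5, 2 and 4 of them at 10 CPM or more, against 2 and 9 in those labelled WT 1 and WT 2. Without Car2, which was abundant everywhere, their levels summed to 289, 27.1 and 171 CPM under the Ythdf3-/- label and to 115 and 1175 CPM under the WT label. Thus the whole set was present in 1 library, a part of it in 2 others, and little beyond Car2 and Blvrb in the remaining 2. In such pooled libraries, fewer cells of a type and less RNA per cell cannot be told apart. Differences of more than 2-fold were common between libraries, within labels too. They ran from 56.7% of the genes compared (labelled Ythdf3-/- 2 and 3) to 65.9% (labelled Ythdf3-/- 1 and WT 2). The 2 libraries labelled WT differed so for 63.9%.

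**Figure D1:**
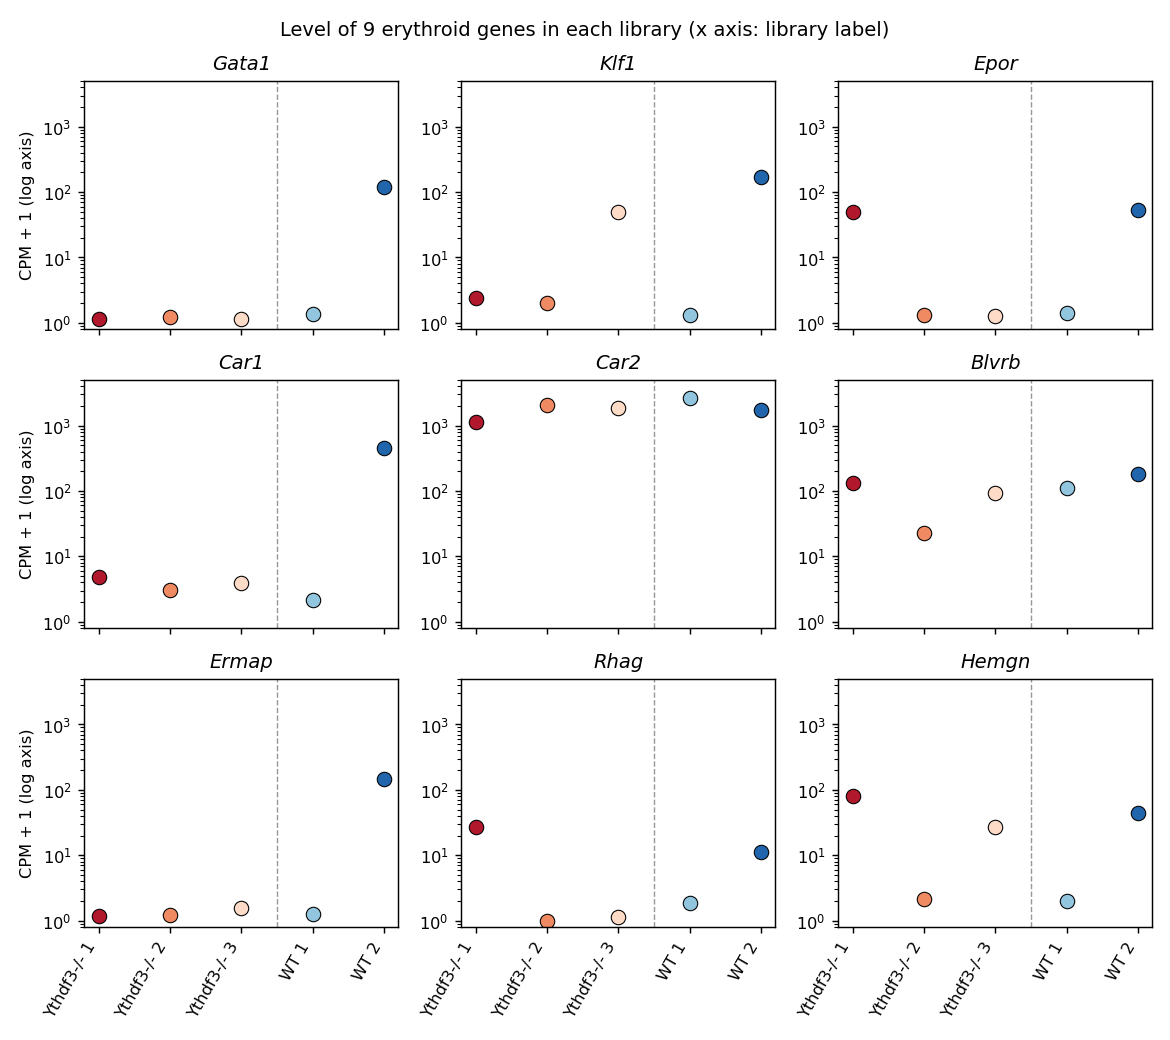
Level of each gene in each library as CPM + 1 on a log axis, with the 3 libraries labelled Ythdf3-/- left of the dashed line and the 2 labelled WT right of it; each point is 1 library. Gata1, Car1 and Ermap stand high in the library labelled WT 2 alone, Epor, Rhag and Hemgn also in that labelled Ythdf3-/- 1, and Car2 lies at 1143 CPM or more in all 5.

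The transcription factors came first. Gata1 (chromosome X, 7959260 to 7978071 in GRCm38, the mm10 build, minus strand) had 1, 2 and 1 counts under the Ythdf3-/- label (libraries 1, 2 and 3, an order kept from here on), against 6 and 1061 under the WT label (libraries 1 and 2). It was thus read at 118 CPM in 1 library and at 0.36 CPM or less in the other 4. Klf1 (chromosome 8, 84901928 to 84905291, plus strand) had 9, 9 and 343 counts under the Ythdf3-/- label, against 5 and 1514 under the WT label. Its levels were 1.42, 0.992 and 48.9 CPM under the Ythdf3-/- label and 0.300 and 169 CPM under the WT label, so the library labelled Ythdf3-/- 3 carried Klf1 message with 1 count of Gata1. Hemgn (chromosome 4, 46393989 to 46413506, minus strand) encodes hemogen, a nuclear protein of blood progenitors and red cell precursors. It had 499, 10 and 183 counts under the Ythdf3-/- label, against 17 and 389 under the WT label. Hemgn was highest in the library labelled Ythdf3-/- 1, at 78.5 CPM, where Gata1 had 1 count and Klf1 had 9.

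Because GATA1 binds the promoters of many erythroid genes, the sequence at annotated starts of the 9 genes was read for its site. RefSeq promoters of GRCm38.p6, running from 250 bases before to 50 bases after an annotated start, were found for 7 of the 9 genes, in 8 windows. The site was searched as the letters GATA with A or T before them and A or G after them, on both strands, and occurred in at least 1 window of 6 of the 7 genes. It occurs in 29.6% of all 32544 distinct promoter windows of that length. Gata1 was the 1 gene without it in its window. The windows of Gata1 and Hemgn lie at starts inside the GENCODE spans of the genes, away from their 5′ ends, and so does the second window of Blvrb, so the outermost starts of Gata1 and Hemgn were not read. The 4 promoters below belong to the factor, its partner KLF1, the receptor and a membrane protein that shares the pattern of Gata1 over libraries. They run 5′ to 3′ along the gene, with the 6 bases of each match in capitals (a match on the other strand reads TATC within).
Gata1 promoter, chrX:7967861-7968160, minus strand: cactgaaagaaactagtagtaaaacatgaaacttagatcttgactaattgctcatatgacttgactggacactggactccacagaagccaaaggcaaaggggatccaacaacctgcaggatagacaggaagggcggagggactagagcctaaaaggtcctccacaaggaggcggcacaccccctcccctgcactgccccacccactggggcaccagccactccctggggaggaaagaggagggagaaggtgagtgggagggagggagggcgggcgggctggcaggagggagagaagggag
Klf1 promoter, chr8:84901732-84902031, plus strand: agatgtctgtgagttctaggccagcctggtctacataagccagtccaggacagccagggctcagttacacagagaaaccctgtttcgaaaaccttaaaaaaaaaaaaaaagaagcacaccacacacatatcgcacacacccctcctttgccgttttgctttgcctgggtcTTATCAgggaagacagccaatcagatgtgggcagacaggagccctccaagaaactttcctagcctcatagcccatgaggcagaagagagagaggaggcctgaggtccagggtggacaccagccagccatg
Epor promoter, chr9:21963527-21963826, minus strand: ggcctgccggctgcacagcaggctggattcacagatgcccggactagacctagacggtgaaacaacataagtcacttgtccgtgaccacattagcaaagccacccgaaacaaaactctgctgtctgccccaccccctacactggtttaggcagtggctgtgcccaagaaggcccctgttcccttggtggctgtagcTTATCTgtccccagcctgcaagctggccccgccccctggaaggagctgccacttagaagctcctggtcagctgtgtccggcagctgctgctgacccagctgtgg
Ermap promoter, chr4:119189946-119190245, minus strand: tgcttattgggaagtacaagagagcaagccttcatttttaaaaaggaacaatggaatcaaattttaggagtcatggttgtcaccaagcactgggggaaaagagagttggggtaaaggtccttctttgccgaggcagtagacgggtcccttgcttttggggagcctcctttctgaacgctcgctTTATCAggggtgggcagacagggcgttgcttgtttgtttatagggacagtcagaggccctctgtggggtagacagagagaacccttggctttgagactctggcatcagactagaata

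A shorter stretch of 60 bases round the match nearest the start is given for the 2 genes that were highest in the library labelled Ythdf3-/- 1.
Rhag stretch, chr17:40811091-40811150, plus strand: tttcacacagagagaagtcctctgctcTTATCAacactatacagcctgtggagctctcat
Hemgn stretch, chr4:46404164-46404223, minus strand: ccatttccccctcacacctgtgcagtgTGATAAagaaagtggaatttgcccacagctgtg
The match began 80 bases before the annotated start in Klf1, 67 in Ermap, 54 in Epor and 31 in Rhag. Hemgn had 2 matches, 1 of which began 13 bases before its annotated start, and 7.61% of windows hold 2 or more. For Blvrb the match lay in the second of its 2 windows. Genes read in 1 library, in 2 libraries and in all 5 therefore all had examples with a match. A CACCC box written as CCNCNCCC, again on both strands and with overlapping matches counted, was present for 4 of the 7 genes (Gata1, Epor, Blvrb and Hemgn, the last in a run of G) and occurs in 49.7% of windows. A match of letters is a description and not a bound site.

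Epor (chromosome 9, 21958897 to 21963506, minus strand) encodes the erythropoietin receptor, which keeps late progenitors alive. Epor counts were 312, 3 and 2 under the Ythdf3-/- label, against 7 and 473 under the WT label. The 2 high libraries carry different labels and lay close to each other, at 49.1 CPM (labelled Ythdf3-/- 1) and 52.7 CPM (labelled WT 2), while the other 3 were at 0.42 CPM or less. The receptor was therefore read at like levels in a library with 1061 counts of Gata1 and in one with 1.

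Of the enzymes, the 2 carbonic anhydrases parted widely. Both hydrate carbon dioxide in the cytosol; CA1 is largely an erythroid enzyme, whereas CA2 is made in many tissues. Their genes are neighbours on chromosome 3, Car1 at 14766216 to 14808368 on the minus strand and Car2 at 14886273 to 14900770 on the plus strand. Car1 had 24, 19 and 20 counts under the Ythdf3-/- label, against 19 and 4093 under the WT label. Car2 had 7269, 18446 and 12991 counts under the Ythdf3-/- label, against 43230 and 15634 under the WT label. The highest library exceeded the lowest 2.27-fold for Car2 and 399.9-fold for Car1. Per kilobase of exon, Car2 stood at 472, 839 and 764 CPM under the Ythdf3-/- label and at 1072 and 719.8 CPM under the WT label, the highest of the 9 genes in each library. Car1 reached 365.7 CPM per kilobase in the library labelled WT 2, next below Car2, and 3.02 CPM per kilobase or less elsewhere.

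The rest of the carbonic anhydrase family was sparse. Among the 14 other genes of the family in the table, 9 had no count in any library. Car9, an enzyme of the cell surface induced by low oxygen, had 82, 278 and 11 counts under the Ythdf3-/- label, against 101 and 634 under the WT label. Car3 was read almost wholly in the library labelled Ythdf3-/- 2 (135 counts) and Car13 in that labelled WT 1 (442 counts), with at most 1 count in the others.

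Blvrb (chromosome 7, 27447978 to 27466144, plus strand) encodes biliverdin reductase B, a flavin reductase abundant in red cells. It had 826, 201 and 649 counts under the Ythdf3-/- label, against 1845 and 1633 under the WT label. With 129.9, 22.1 and 92.5 CPM under the Ythdf3-/- label and 111 and 182 CPM under the WT label, it was low in the library labelled Ythdf3-/- 2 and present in all 5. Car2 and Blvrb were the only 2 of the 9 genes above 10 CPM in every library.

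The membrane genes again followed different libraries. Ermap (chromosome 4, 119175457 to 119190011, minus strand) encodes a butyrophilin-like protein of the erythroid surface that carries the Scianna blood group in humans. It had 1, 2 and 4 counts under the Ythdf3-/- label, against 4 and 1282 under the WT label, a second gene confined to the library labelled WT 2 but for 4 counts or fewer in each of the rest. Rhag (chromosome 17, 40811126 to 40840754, plus strand) encodes the Rh-associated glycoprotein, the partner that brings the Rh complex to the red cell membrane. It had 167, 0 and 1 counts under the Ythdf3-/- label, against 14 and 90 under the WT label. At 0 counts, the library labelled Ythdf3-/- 2 allows, by counting error alone, a level of up to 0.331 CPM (3 counts). Rhag was the 1 gene of the 9 with a mean under 10 CPM, with 26.3 CPM in the library labelled Ythdf3-/- 1 and 10.04 CPM in that labelled WT 2. None of the 9 genes shares exon bases with another gene of the GENCODE vM21 annotation.

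The spread of each gene over libraries was then set beside that of all genes. Of its CPM summed over the 5 libraries, Gata1 had 99.3% in the library labelled WT 2, Ermap 99.2%, Car1 97.9% and Klf1 76.6%. That library and the one labelled Ythdf3-/- 1 together held 99.0% for Epor and 97.4% for Rhag, in unequal parts for Rhag, with 70.4% in the library labelled Ythdf3-/- 1 and 26.9% in that labelled WT 2. Hemgn had 52.3% and 28.9% in the same 2 libraries. In all, 3 of the 9 genes had at least 90% of their CPM in the library labelled WT 2, against 0.647% (61) of the 9425 genes with a mean of at least 10 CPM. The pattern of Epor and Rhag, with at least 90% in the 2 libraries together and at least 10% in each, was met by 1.16% (109) of those 9425 genes. Rhag, with a mean under 10 CPM, is not among the 9425. Since the 9 genes were picked for such patterns, nothing is read from the difference. Likewise 0.541% (51) of genes had at least 90% in the library labelled Ythdf3-/- 1, while 28, 28 and 60 genes had it in those labelled Ythdf3-/- 2, Ythdf3-/- 3 and WT 1.

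**Figure D2:**
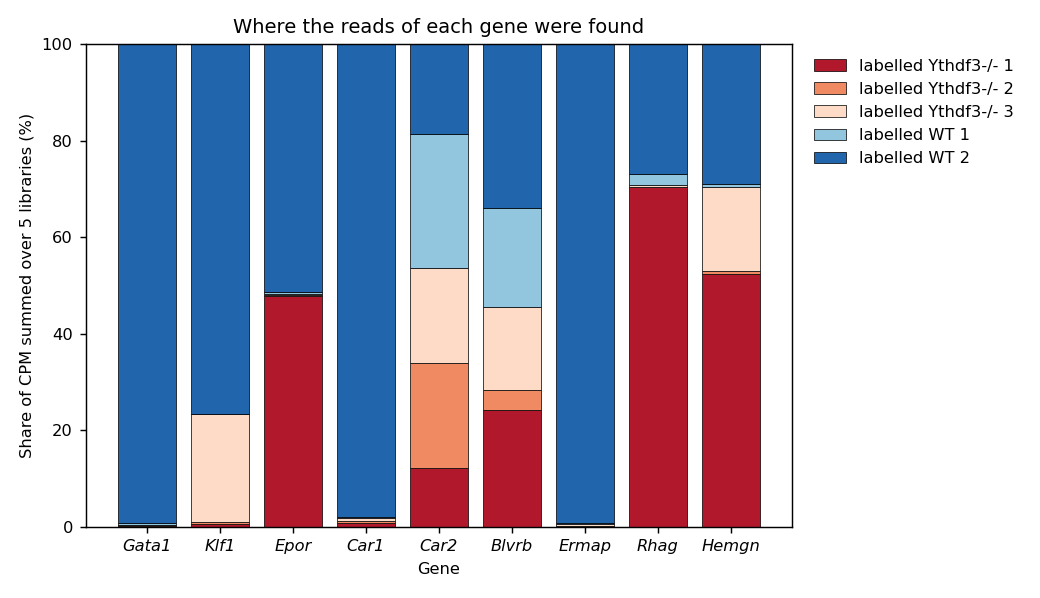
Share of each gene's CPM, summed over the 5 libraries, found in each library (percent; stacked bars, 1 colour per library). Gata1, Car1 and Ermap have 97.9% or more in the library labelled WT 2, Epor divides between that and the library labelled Ythdf3-/- 1, and Car2 is spread over all 5.

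Genes outside the set with the pattern most like Gata1 were found by a distance, the summed absolute difference of the 5 shares divided by 2, over 7682 genes with a mean of at least 20 CPM. The nearest was Mt2, a metallothionein of metal buffering, at a distance of 0.246%, with 1, 1 and 3 counts under the Ythdf3-/- label, against 4 and 1211 under the WT label. Next came Atp1b2, a beta subunit of the sodium pump (5, 5 and 2 counts under the Ythdf3-/- label and 3 and 2839 under the WT label), and Ccne1, cyclin E1 (2, 2 and 1 counts under the Ythdf3-/- label and 34 and 2462 under the WT label). Rgs10, Dennd3, Crip2, Rhd, Rapgef4, Ccnb2 and Tk1 completed the 10 nearest, all within 2.95%. Rhd encodes the Rh antigen carrier that pairs with RHAG in the membrane, yet it had 10, 6 and 3 counts under the Ythdf3-/- label, against 5 and 906 under the WT label, without the high value that Rhag had in the library labelled Ythdf3-/- 1. Ccnb2 (cyclin B2) and Tk1 (thymidine kinase of S phase) are cell cycle genes. Among the members, Ermap lay 0.276% from Gata1, Car1 1.43%, Klf1 22.8% and Epor 48.0%. The distance from Rhag to Hemgn was 19.7% and that from Epor to Hemgn 22.4%.

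Between the labels, the 9 genes differed in which group had the higher mean CPM. Gata1 averaged 0.173 ± 0.041 CPM under the Ythdf3-/- label and 59.3 ± 83.4 CPM under the WT label (SD, n = 3 and n = 2). Klf1 averaged 17.1 ± 27.5 CPM under the Ythdf3-/- label and 84.6 ± 119 CPM under the WT label. For Car1 the averages were 2.91 ± 0.842 CPM under the Ythdf3-/- label and 229 ± 322 CPM under the WT label. For Ermap the averages were 0.316 ± 0.222 CPM under the Ythdf3-/- label and 71.6 ± 101 CPM under the WT label. The SD under the WT label exceeded the mean for each of these 4 genes, because 1 of the 2 libraries was low. Epor averaged 16.6 ± 28.2 CPM under the Ythdf3-/- label and 26.6 ± 37.0 CPM under the WT label. Means lay the other way for Rhag, at 8.80 ± 15.1 CPM under the Ythdf3-/- label and 5.44 ± 6.50 CPM under the WT label. So they did for Hemgn, at 35.2 ± 39.5 CPM under the Ythdf3-/- label and 22.2 ± 29.9 CPM under the WT label. Blvrb averaged 81.5 ± 54.7 CPM under the Ythdf3-/- label and 146 ± 50.4 CPM under the WT label. Car2 averaged 1676 ± 470 CPM under the Ythdf3-/- label and 2170 ± 603 CPM under the WT label. Groups did not overlap for 1 of the 9 genes, Gata1, and there on 1 to 6 counts in 4 libraries; the share was 21% among genes with a mean of at least 10 CPM.

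As a description, the difference in mean log2 CPM (Ythdf3-/- label minus WT label, prior count 2) was negative for 8 of the 9 genes, with a median of -1.37. On another measure, the fitted log2 fold change of edgeR, 5813 of the 11146 genes tested (52.2%) were lower under the Ythdf3-/- label. Gata1 and Ermap are not among those tested, so the 2 counts are not compared. For Rhag the sign depends on the scale, at -1.46 on log2 CPM although its mean CPM was higher under the Ythdf3-/- label. The differences ran from -4.50 for Gata1 to 0.84 for Hemgn. For 6 of the 9 genes leaving out 1 library turned the direction. Without the library labelled WT 2 the difference was 3.15 for Klf1, 1.88 for Epor, 1.14 for Car1, 0.21 for Rhag and 0.13 for Ermap, and the median became 0.21. The sign for Ermap then rests on 1, 2 and 4 counts under the Ythdf3-/- label against 4 in the library labelled WT 1. Without the library labelled WT 1 the median became -4.53 and the difference of Hemgn turned to -1.76. Hemgn was at -0.38 without the library labelled Ythdf3-/- 1, Epor at -3.56 and the median at -3.28, while without that labelled Ythdf3-/- 2 the median was -0.47. With neither the library labelled WT 2 nor that labelled Ythdf3-/- 1, an alternative added once the values were known, the median was -0.34 and Klf1 stood at 3.93. Car2, Blvrb and Gata1 were negative with every library left out in turn, from -0.71 to -0.19 for Car2, from -1.71 to -0.47 for Blvrb and from -8.22 to -0.60 for Gata1. The -0.60 of Gata1, without the library labelled WT 2, rests on 1, 2 and 1 counts under the Ythdf3-/- label against 6.

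**Figure D3:**
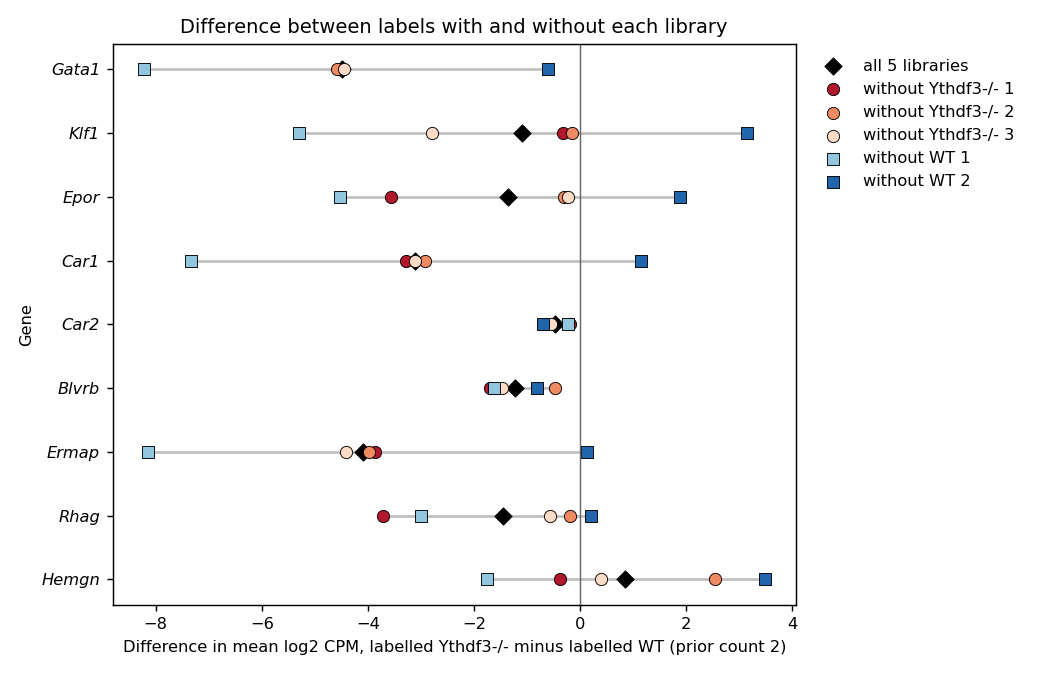
Difference in mean log2 CPM between the labels (Ythdf3-/- minus WT, prior count 2; x axis) for each gene (y axis), with all 5 libraries (diamonds) and with 1 library left out (circles for those labelled Ythdf3-/-, squares for those labelled WT); grey lines join the lowest and highest value. Leaving out the library labelled WT 2 puts Klf1, Epor and Car1 above 0, at 3.15, 1.88 and 1.14.

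Across the transcriptome the quasi-likelihood test of edgeR called 0 of 11146 genes between the labels at an adjusted p of 0.05 (0%), while 541 had an unadjusted p under 0.05; limma voom called 0 and DESeq2 594. Of the 9 genes, 7 passed the filter on low counts for that test, and Gata1 and Ermap did not, since 1 library alone held them. The genes around them in red cell biology were read in 7 lists (transcription factors, erythropoietin signalling, haem, iron, membrane, early progenitors, and globins with late genes), which hold 132 further genes of the table. With edgeR 0 of the 104 tested passed, 51 were fitted higher and 53 lower under the Ythdf3-/- label, and 8 had an unadjusted p under 0.05. Their median log2 fold change was -0.061, against -0.063 over all genes tested.

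Most partners of GATA1 and KLF1 were present in every library. Of 18 other transcription factors and cofactors, 16, 16 and 16 reached 10 CPM under the Ythdf3-/- label, against 16 and 17 under the WT label, and 9 were fitted higher and 9 lower (median log2 fold change -0.085). Lmo2, the bridging protein of the GATA1 and TAL1 complex, had 2831, 11404 and 8143 counts under the Ythdf3-/- label, against 8955 and 5085 under the WT label. Nfe2, a factor of globin and platelet genes, had 5300, 8392 and 9250 counts under the Ythdf3-/- label and 7017 and 1795 under the WT label (log2 fold change 1.64, SE 0.41, edgeR adjusted p = 0.964). For Zfp36l2, an RNA-binding protein needed for self-renewal of early erythroid progenitors, counts were 400, 413 and 538 under the Ythdf3-/- label and 2133 and 2843 under the WT label (log2 fold change -1.96, SE 0.61, edgeR adjusted p = 0.964). Its fold change became -1.09 without the library labelled WT 2. Gata2, which precedes GATA1 in progenitors, had 1492, 1397 and 1910 counts under the Ythdf3-/- label, against 5618 and 940 under the WT label. Lmo2, Nfe2 and Gata2 were thus read alongside 1 to 6 counts of Gata1 in 4 libraries.

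In erythropoietin signalling, 6 of 13 tested genes were fitted higher and 7 lower (median log2 fold change -0.19). Kit, the stem cell factor receptor, had 2255, 2212 and 3792 counts under the Ythdf3-/- label, against 9358 and 2282 under the WT label. Cish, a feedback inhibitor induced by STAT5, was read in all 5 libraries (1845, 582 and 1622 counts under the Ythdf3-/- label and 5326 and 2074 under the WT label), also where Epor had 2 to 7 counts. Bcl2l1, the survival gene downstream of the receptor, had 1375, 446 and 672 counts under the Ythdf3-/- label, against 36 and 26 under the WT label (log2 fold change 5.47, SE 1.18, edgeR adjusted p = 0.964). Of the 2 libraries with high Epor, that labelled Ythdf3-/- 1 had the highest Bcl2l1 level and that labelled WT 2 a low one, at 216 and 2.90 CPM.

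Of 16 haem genes, 12, 12 and 11 reached 10 CPM under the Ythdf3-/- label and 12 and 12 under the WT label. They were not the same genes in each library. Among haem genes, 10 of 16 tested were fitted higher and 6 lower (median log2 fold change 0.12), and among iron genes 6 of 12 higher and 6 lower (median -0.020). Alas2, the erythroid enzyme of the first step, had 6108, 19 and 0 counts under the Ythdf3-/- label, against 13 and 149 under the WT label. Other haem genes were uneven too. Cpox had 5, 349 and 4 counts under the Ythdf3-/- label, against 5 and 1083 under the WT label. Alas1 had 1, 473 and 466 under the Ythdf3-/- label, against 1069 and 7 under the WT label. Hmox2, a haem oxygenase made in most cells, had 2716, 3762 and 2086 counts under the Ythdf3-/- label and 4150 and 2056 under the WT label. Ftl1, the ferritin light chain, had 39259, 61413 and 48161 counts under the Ythdf3-/- label, against 111570 and 40770 under the WT label; reads of ferritin genes can be shared with processed pseudogenes. Tfrc, the transferrin receptor, named after its values were seen, had 3, 313 and 4 counts under the Ythdf3-/- label, against 12 and 1497 under the WT label.

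Some membrane, progenitor and late genes differed widely between the libraries labelled Ythdf3-/- 1 and WT 2. Of 103 genes in the 7 lists with a mean of at least 10 CPM, 9 (8.74%) had at least 90% of their CPM in the library labelled Ythdf3-/- 1. A further 5 (4.85%) had it in that labelled WT 2 and 1 in the other 3. Over all genes of that level the shares were 0.541% and 0.647%. The lists were chosen with earlier results known, so nothing is read from the difference. Among the 9 were the globin genes Hba-a1, Hba-a2, Hbb-bs and Hbb-bt, then Alas2, Slc4a1 (the anion exchanger band 3) and Trim10. Hba-a1 had 117770, 419 and 147 counts under the Ythdf3-/- label, against 268 and 2438 under the WT label; its reads and those of Hba-a2 can be shared between near-identical copies. Slc4a1 had 940, 1 and 0 counts under the Ythdf3-/- label and 0 and 3 under the WT label. The 5 were Atp1b2, Rhd, Slc11a2 (a transporter of ferrous iron), Aqp1 (the water channel of the red cell) and Cldn13. Slc11a2 had 1, 0 and 1 counts under the Ythdf3-/- label, against 2 and 743 under the WT label, and Aqp1 had 2, 0 and 0 under the Ythdf3-/- label and 5 and 782 under the WT label. The 1 in another library was Slc14a1, the urea transporter, with 2560 counts in the library labelled WT 1 and at most 26 elsewhere.

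Between these extremes lay genes that both libraries shared. Tspo2 had 265, 3 and 1 counts under the Ythdf3-/- label and 3 and 339 under the WT label, and Nxpe2 316, 0 and 1 under the Ythdf3-/- label and 9 and 446 under the WT label, which is the pattern of Epor. Of the late list, 11 of 15 genes with a mean of at least 10 CPM were highest in the library labelled Ythdf3-/- 1, where Gata1, Klf1, Car1 and Ermap had 1, 9, 24 and 1 counts. In contrast, of the early progenitor list 8 of 17 were highest in that labelled WT 2 and 1 in that labelled Ythdf3-/- 1, against 22.5% and 19.9% of all genes of that level. Bpgm, the enzyme that makes 2,3-bisphosphoglycerate in red cells, had 3194, 328 and 401 counts under the Ythdf3-/- label, against 21 and 20 under the WT label (log2 fold change 6.73, SE 1.53, edgeR adjusted p = 0.964). That became 4.66 without the library labelled Ythdf3-/- 1. Nfe2, Bcl2l1 and Bpgm were called by DESeq2 but not by edgeR, except Bpgm with no filter on low counts.

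**Figure D4:**
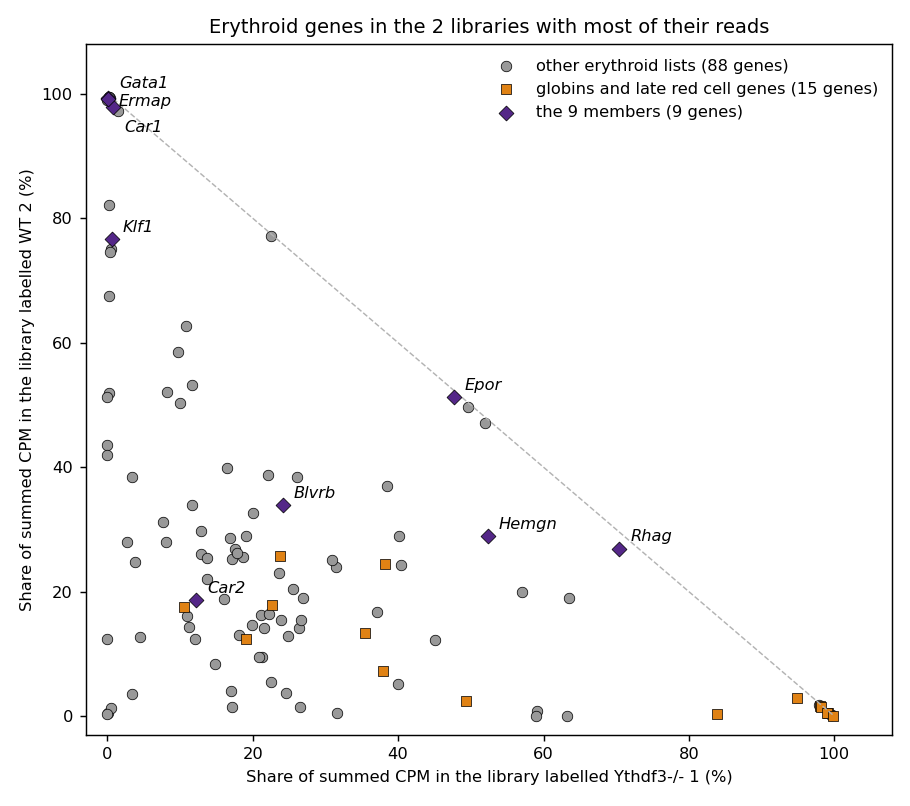
Share of each gene's summed CPM in the library labelled Ythdf3-/- 1 (x axis, percent) and in that labelled WT 2 (y axis, percent) for the 9 members (diamonds), late red cell genes (squares) and the other erythroid lists (circles); on the dashed line the 2 libraries hold all reads. Gata1, Ermap and Car1 lie at the top left, at 97.9% or more in the library labelled WT 2, the globin genes at the bottom right, at 94.9% or more in that labelled Ythdf3-/- 1, and Epor and Rhag between them.

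Other programmes differed between the same libraries. The 25 genes of S phase and mitosis summed to 1487, 334 and 517 CPM under the Ythdf3-/- label and to 705 and 2344 CPM under the WT label. Of the 17 with a mean of at least 10 CPM, 14 were highest in the library labelled WT 2, against 22.5% of all genes of that level. Rrm2, the ribonucleotide reductase subunit of S phase, had 1421, 22 and 42 counts under the Ythdf3-/- label, against 216 and 2293 under the WT label, high in the same 2 libraries as Epor. The 14 B cell genes summed to 2336, 640.3 and 602 CPM under the Ythdf3-/- label and to 1695 and 99.2 CPM under the WT label. Most of the sums in the libraries labelled Ythdf3-/- 2 and 3 came from Cd74 (418 and 468 CPM) and Cd79b (206 and 85.5 CPM). By number, 12, 2 and 3 of the 14 reached 10 CPM under the Ythdf3-/- label, against 11 and 2 under the WT label. By that count the library labelled WT 2 was as low as that labelled Ythdf3-/- 2. Megakaryocyte and platelet genes, of the lineage closest to the red cell, summed to 709.5, 1135 and 1095 CPM under the Ythdf3-/- label and to 1250 and 764 CPM under the WT label. Genes of mast cells, basophils and eosinophils, where GATA1 also acts, summed to 0, 0.22 and 0 CPM under the Ythdf3-/- label and to 0.601 and 7.69 CPM under the WT label. In that list 10 of 14 genes had no count in any library, and the 68 counts of Il1rl1 made up nearly all of the last value. Monocyte and macrophage genes summed to 102, 68.6 and 226 CPM under the Ythdf3-/- label and to 73.2 and 47.9 CPM under the WT label, and the myeloid factor Spi1, which opposes GATA1, had 1445, 1444 and 3284 counts under the Ythdf3-/- label and 4118 and 566 under the WT label. The part of these programmes in the levels of the 9 genes was not tested.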

How the data were processed

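Counts of reads per gene symbol were deposited by the authors as raw values for 5 libraries; HISAT2 2.2.1, HTSeq 0.12.4 and mm10 are named in the submitters' processing notes. The sources used here give no annotation, strand setting or treatment of reads with several matches. Smart-seq2 keeps neither strand nor molecule identifiers, so floors (3 counts) cover counting error only. Columns were matched to samples by title, and groups follow the labels. CPM was computed from library totals. Exon lengths and spans come from GENCODE vM21, in which 9 of 9 members had 1 gene.

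The label comparison used the quasi-likelihood test of edgeR 4.0.16 in R 4.3.3 on all 5 libraries. It had TMM scaling, its default filter by group, a robust fit and Benjamini-Hochberg adjustment over 11146 genes. A check on simulated counts had to recover changes only at a spread well below that of these data (biological coefficient of variation 1.26). It therefore does not show what the test could find here. DESeq2 1.42.0 and limma 3.58.1 (voom) were alternatives, with other scalings and filters, each library left out, and a replicate block. SEs were derived from the F statistic.

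The members and the 15 gene lists were chosen with earlier results of these data known. Named genes were the members, Ythdf3, for each list the 3 with the highest mean CPM and the 2 with the smallest p, and the 10 nearest to Gata1; some of these are not reported here. Genes of the lists named by their share in 1 or 2 libraries were chosen after their values were seen.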

Additional observations from a re-analysis of the deposited data

How the results depend on the processing

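The count of genes called between the labels, 0 in edgeR, was also 0 under 3 other scalings, a stricter filter and limma voom. It was 21 with no filter on low counts, 594 with DESeq2, and 0 to 1 with each library left out; without either library labelled WT, 1 WT library remains and is assumed to vary like those labelled Ythdf3-/-. Genes of the 15 lists other than the members gave 0, then 8 with no filter and 17 with DESeq2. Calls of the members are not given, since their values in these libraries chose them. The median difference of the 9 members ranged from -4.53 to 0.21 with a library left out, and from -1.48 to -1.29 otherwise, apart from -0.34 without the libraries labelled WT 2 and Ythdf3-/- 1. The median of all genes (log2 fold change -0.063) came to 0.31 when WT 1 was left out and to 0.22 when WT 2 was. Single members changed sign in 11 of 117 refits, over 6 members, and 10 of the 11 left out 1 or 2 libraries; the other was Rhag in DESeq2, at 0.62. Genes with at least 90% of their CPM in the library labelled WT 2 (61) numbered 93 at 80%, 429 at a mean of 1 CPM and 3 at a mean of 50 CPM, and 135 to 151 over 4 libraries. Those of the library labelled Ythdf3-/- 1 (51) numbered 85, 379 and 7, and 131 to 138 over 4 libraries. Thinning to 6357862 counts and TMM sizes gave 60 and 67, and 49 and 51. Of the 10 genes nearest to Gata1, 10 were again nearest with shares of log2 CPM and 0 were nearest to the members' mean shares.

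With the replicate number as a block, edgeR called 0 genes and the members' median was -1.48. The numbers mark different mice. Deviations of same-numbered libraries correlated at -0.0043 and 0.0095, and with 2 WT libraries these values are not independent. Whether same-numbered libraries shared a batch was not tested.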
